A study of Homo sapiens with 20 samples.

Results

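The 33 genes described here encode the enzymes and regulators of cholesterol and fatty acid synthesis. They were listed by function: 7 genes of the mevalonate pathway, 11 of the steps that lead on to cholesterol, 6 that control the pathway through the SREBP transcription factors or move its product, and 9 of fatty acid synthesis. A named probe was matched for 32 of the 33 in each experiment, out of 20741 genes named on either array; FDFT1 was not analysed here. All 32 had at least 1 probe bright enough to be tested, among 11820 tested genes in the miR-4728-3p experiment and 11899 in the miR-1 experiment.

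Cells make cholesterol from acetyl-CoA through mevalonate and squalene, and build fatty acids from the same precursor. Both routes are switched on by the sterol regulatory element binding proteins, SREBF1 and SREBF2, which are made as inactive precursors in the endoplasmic reticulum. SCAP carries the precursors to the Golgi for cleavage when sterols are scarce, and INSIG1 and INSIG2 hold SCAP back when sterols are plentiful, so many enzymes of the pathway share one transcriptional control in epithelial cells as in liver.

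The study transfected MCF10A, a non-tumorigenic human mammary epithelial cell line, with miRNA mimics and measured mRNA on Illumina HumanHT-12 BeadChips on the second day after transfection. In the miR-4728-3p experiment 6 arrays came from cells given the miR-4728-3p mimic and 6 from cells given a control siRNA that targets no gene. In the miR-1 experiment 4 arrays came from cells given the miR-1 mimic, hsa-miR-1-3p, and 4 from cells given a non-targeting control. All cells were transfected with the same lipid reagent, controls included. Oligonucleotides were at 100 nM according to the labels, a lower dose being possible by the methods. All arrays rest on 1 cell line. The methods call the replicates biological, but the labels do not say whether they were separate cultures, so the p-values measure only the spread between these arrays.

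The miR-4728-3p mimic was custom-made to the 25 nt mature sequence, and the 22 nt miR-1 was used as a commercial mimic. The mature sequences of both are shown because they define the treatments. They are RefSeq sequences on GRCh38.p14, 5′ to 3′, with the seed at bases 2 to 8 in capitals. The seeds, AUGCUGA and GGAAUGU, differ. The mature miR-4728-3p lies at chr17:39726537-39726561 on the plus strand, and the same miR-1-3p is made from a locus at chr18:21829015-21829036 on the minus strand and from another at chr20:62554351-62554372 on the plus strand.
hsa-miR-4728-3p: cAUGCUGAccucccuccugccccag
hsa-miR-1-3p: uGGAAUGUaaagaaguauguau

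Values are log2 intensities after background correction and quantile normalization, so a difference of 1 is a doubling of the corrected signal. The median raw intensity was between 113 and 134 over the miR-4728-3p mimic arrays and between 101 and 135 over their controls, and between 107 and 121 over the miR-1 mimic arrays and between 92 and 114 over their controls. No pair of arrays held identical values, and arrays of an experiment correlated at 0.962 or above with miR-4728-3p and at 0.987 or above with miR-1. All 6 tested breast epithelial markers were well above the filter in all groups, with group means between 7.94 and 11.9 in miR-1 mimic arrays and between 8.08 and 11.6 in miR-1 controls, and between 9.67 and 12.7 in miR-4728-3p mimic arrays and between 9.86 and 12.8 in their controls. Of the markers of other cell types, 1 of 5 adipocyte markers passed the filter in the miR-4728-3p experiment and 2 of 5 in the miR-1 experiment, and 3 of 8 blood, endothelial and stromal markers passed it in each (CD14, DCN and PECAM1). CD14 was well above the filter, at 10.10 in miR-4728-3p mimic arrays and 10.22 in their controls, and at 9.42 and 9.43 with miR-1. DCN was at 9.11 and 9.27 with miR-4728-3p and at 6.53 in both groups with miR-1. PECAM1 was at 6.85 and 6.76, and at 6.27 and 6.54. None of these markers of other cell types differed past the test in either experiment.

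With the miR-1 mimic, 5 of the 32 genes rose and none fell. The 5 were HMGCS1, MVD and IDI1 of the mevalonate pathway, SC5D of the last steps to cholesterol, and ACLY, which supplies acetyl-CoA to both routes, and each was higher by between 1.37-fold and 1.45-fold. The 5 make up 15.6% of the list, where 1.45% of all tested genes rose and 1.24% fell, or 2.69% in either direction. The count was 2 with a background offset of 16, 1 with median scaling or with the replicate number as a block, and 2 to 6 with single arrays left out. In all, 28 of the 32 genes had a difference above 0, or 87.5%, against 48.2% of all tested genes, and 4 were below 0, against 51.8% of all tested genes, with a median log2 difference of 0.16 against -0.01. These are bulk RNA measurements, in which fewer cells of a type and less RNA per cell cannot be told apart.

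With the miR-4728-3p mimic most of the list lay below 0, at sizes that the test did not separate from the spread between arrays. By the probe that stands for each gene, 1 of the 32 genes rose, TM7SF2, and none fell, where 3.94% of all tested genes rose and 3.8% fell, or 7.74% in either direction. Of the 32 genes, 25 were below 0, or 78.1%, against 56.1% of all tested genes, and 7 were above 0, against 43.9%. With median scaling 20 of the 32 were below 0 and 12 were above 0. That is 37.5% above 0, where 56.7% of all tested genes were above 0. The median log2 difference was -0.15 against -0.02. In this experiment all 10 interferon response markers rose as well, with a median log2 difference of 5.65, and their mean log2 intensity lay between 12.7 and 13.5 over the mimic arrays and between 7.05 and 7.95 over the control arrays. In the miR-1 experiment none of the 8 tested interferon markers passed the test, and their mean lay between 6.65 and 6.79 over the mimic arrays and between 6.60 and 6.76 over the control arrays. The part of the interferon markers in the differences of the sterol and fatty acid genes was not tested.

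**Figure D1:**
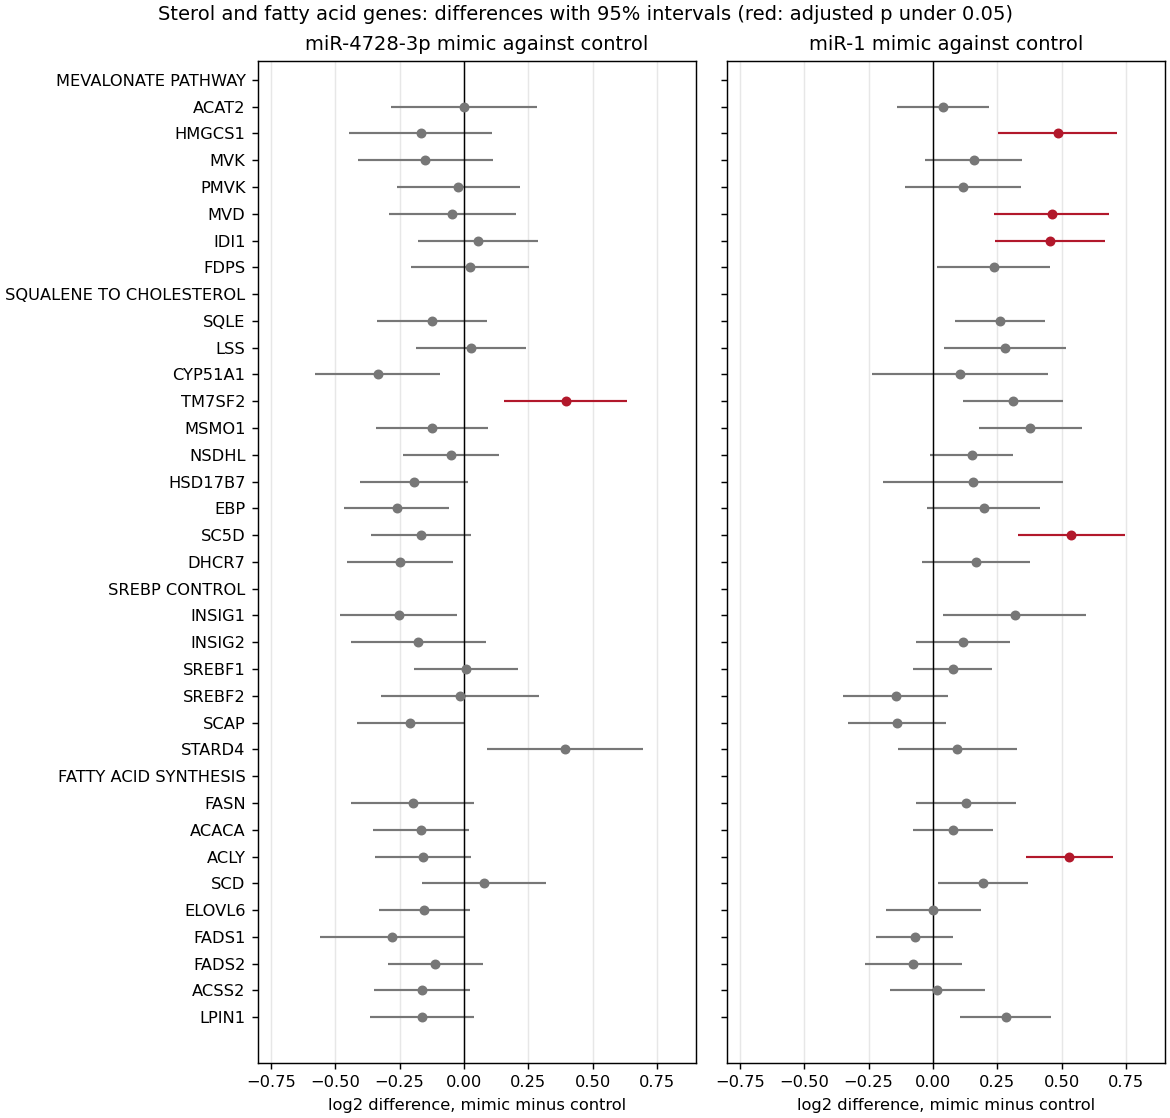
Log2 difference of each of the 32 genes, mimic minus control, with its 95% interval from limma, grouped by role, in the miR-4728-3p experiment on the left and the miR-1 experiment on the right; red marks an adjusted p under 0.05 over all tested probes. With miR-1, 28 of 32 points lie right of 0 and 5 are red. With miR-4728-3p, 25 of 32 lie left of 0 and TM7SF2 alone is red.

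Averaged over all 32 genes, the arrays of the groups did not overlap in either experiment. The mean of the list, set against the mean of all tested genes on the same array, lay between 1.79 and 1.84 log2 units in the 4 miR-1 mimic arrays and between 1.58 and 1.70 in their 4 controls. It lay between 1.84 and 1.88 in the 6 miR-4728-3p mimic arrays and between 1.92 and 1.99 in their 6 controls. So the miR-1 mimic arrays were all higher than their controls, and the miR-4728-3p mimic arrays all lower than theirs, with mean differences of 0.19 and -0.10 log2 units. No test was made of these means, since the list was chosen with results of these data known.

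By role, the mevalonate genes had the widest mean separation in the miR-1 experiment, at 1.80 to 1.98 in mimic arrays and 1.55 to 1.66 in controls, followed by the genes from squalene to cholesterol, at 1.87 to 1.99 in mimic arrays and 1.58 to 1.80 in controls. The fatty acid genes overlapped by a narrow margin, at 2.53 to 2.61 in mimic arrays and 2.41 to 2.53 in controls, and the SREBP control genes overlapped, at 0.31 to 0.39 in mimic arrays and 0.23 to 0.36 in controls. In the miR-4728-3p experiment only the fatty acid genes did not overlap among these 4 roles, at 2.76 to 2.85 in mimic arrays and 2.93 to 3.01 in controls. The separation was not particular to the listed genes. The mean log2 intensity of 13 other fatty acid genes, not set against all genes, was 9.50 to 9.58 in mimic arrays and 9.59 to 9.64 in controls. The mevalonate genes, at 1.44 to 1.57 in mimic arrays and 1.51 to 1.61 in controls, overlapped in part.

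**Figure D2:**
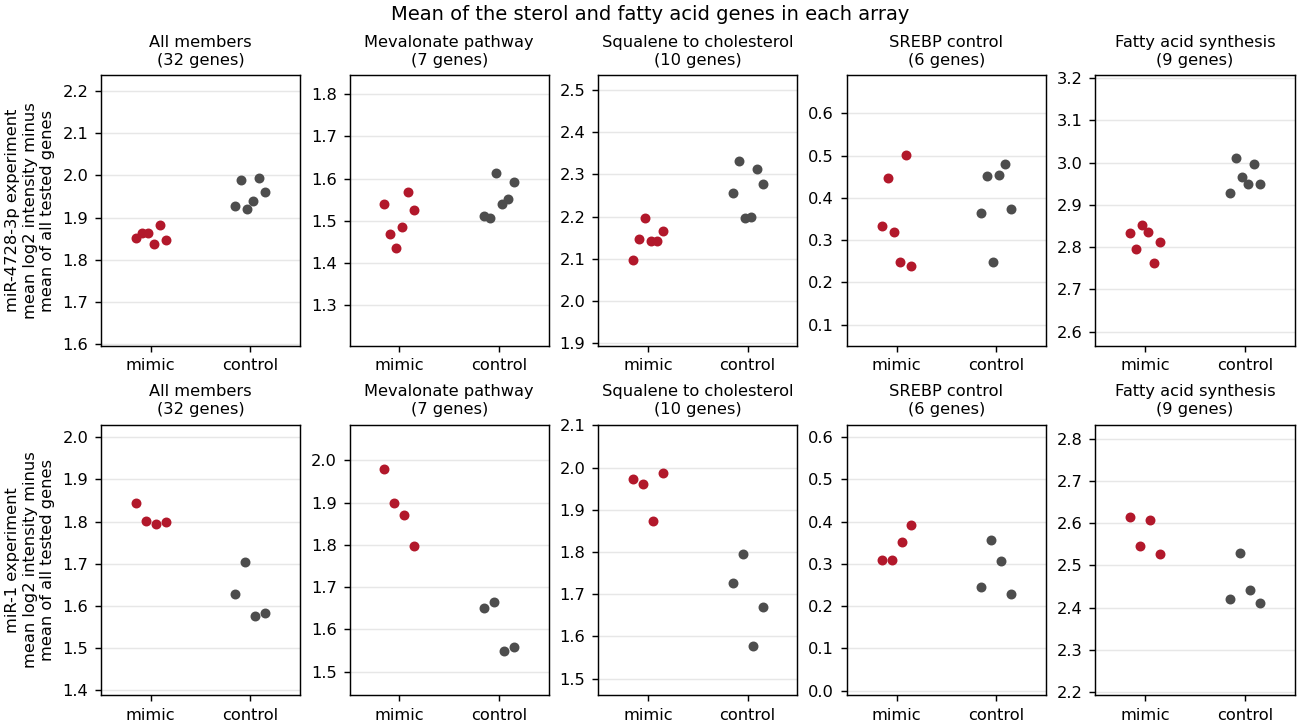
Mean log2 intensity of the genes of each role minus the mean of all tested genes on the same array, 1 point per array, with the miR-4728-3p experiment above (6 arrays a group) and the miR-1 experiment below (4 a group); every panel spans the same number of log2 units. The mimic arrays of the miR-1 experiment lie above their controls for all members, the mevalonate genes and the squalene to cholesterol genes, and those of the miR-4728-3p experiment lie below theirs for all members and the fatty acid genes.

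The mevalonate pathway carries acetyl-CoA to farnesyl diphosphate, and 3 of its 7 genes rose with miR-1. HMGCS1, the cytosolic synthase that makes HMG-CoA, measured 11.45, 11.09, 11.24 and 11.26 in the miR-1 mimic arrays and 10.65, 11.09, 10.72 and 10.64 in the control arrays. The lowest mimic array and the highest control array were both at 11.09, and the other 3 controls were lower than every mimic array. The log2 difference was 0.48 (SE 0.11), a 1.40-fold higher signal, with an adjusted p of 0.0323 by limma with Benjamini-Hochberg adjustment.

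MVD, the decarboxylase that makes isopentenyl diphosphate, measured 8.56, 8.32, 8.44 and 8.10 in mimic arrays and 7.70, 8.04, 7.87 and 7.97 in control arrays. The groups did not overlap, and the log2 difference was 0.46 (SE 0.10, adjusted p 0.0348 by limma). IDI1, the isomerase that acts on that product, measured 10.34, 10.25, 10.30 and 10.43 in mimic arrays and 9.98, 10.07, 9.59 and 9.87 in control arrays. Its groups did not overlap either, and the log2 difference was 0.45 (SE 0.10, adjusted p 0.0283 by limma).

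The calls of these 3 genes depended on which arrays and which scaling were used. They were lost with a background offset of 16, where the differences were 0.49 for HMGCS1, 0.53 for MVD and 0.47 for IDI1. They were also lost with median scaling and with the replicate number as a block. HMGCS1 also missed the threshold with array weights (difference 0.44, adjusted p 0.0537 by limma). IDI1 stayed past the threshold when control 1, control 2 or mimic 2 was left out and missed it without any other array; HMGCS1 stayed past it only without control 2 or mimic 2, and MVD only without control 2 or mimic 4. The difference itself stayed between 0.36 and 0.59 whichever array was left out. The other 4 mevalonate genes had differences above 0 that did not pass the test: FDPS, which makes farnesyl diphosphate, had 0.24, the kinases MVK and PMVK had 0.16 and 0.12, and the thiolase ACAT2 had 0.04.

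With miR-4728-3p none of the 7 mevalonate genes passed the test, and their median difference was -0.02. HMGCS1 had a lowest, median and highest log2 intensity of 11.10, 11.44 and 11.86 in the 6 mimic arrays and 11.33, 11.63 and 12.09 in the 6 control arrays, and differed by -0.17 (adjusted p 0.624 by limma). MVD had 8.61, 8.92 and 9.13 in mimic arrays and 8.61, 8.95 and 9.27 in control arrays. IDI1 had 10.17, 10.34 and 10.62 in mimic arrays and 9.95, 10.34 and 10.60 in control arrays. The groups of all 3 overlapped along most of their range, and MVD and IDI1 differed by -0.05 and 0.06, with directions that changed when single arrays were left out.

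The genes from squalene to cholesterol were above 0 in 10 of 10 cases with miR-1, with a median of 0.23, and 1 of them rose. SC5D, the desaturase that acts on lathosterol near the end of the route, measured 9.84, 9.53, 9.38 and 9.59 in miR-1 mimic arrays and 8.99, 9.17, 9.05 and 8.99 in control arrays. Every mimic array was above every control array, and the log2 difference was 0.54 (SE 0.10, 1.45-fold, adjusted p 0.00907 by limma). It passed the test whichever of the 8 arrays was left out. It missed it with median scaling (difference 0.60, adjusted p 0.0789 by limma) and with the replicate number as a block.

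MSMO1, the methylsterol oxidase that helps strip methyl groups from the sterol after lanosterol, was split between its 3 tested probes. The brightest measured 11.95, 11.89, 11.74 and 11.93 in mimic arrays and 11.60, 11.68, 11.31 and 11.40 in control arrays, without overlap, and its difference of 0.38 (SE 0.09) had an adjusted p of 0.0541 by limma. It passed the test when control 2 was left out and in 5 of the 10 other settings tried. Another probe measured 10.70, 10.73, 10.86 and 10.77 in mimic arrays and 10.21, 10.64, 10.19 and 10.01 in control arrays, also without overlap, and rose by 0.50 (SE 0.11, adjusted p 0.0338). The third probe differed by 0.11 (adjusted p 0.698). MSMO1 was the only 1 of 11 listed genes with several tested probes to be called by another probe alone in this experiment, where 0.705% of all genes with several tested probes were.

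**Figure D3:**
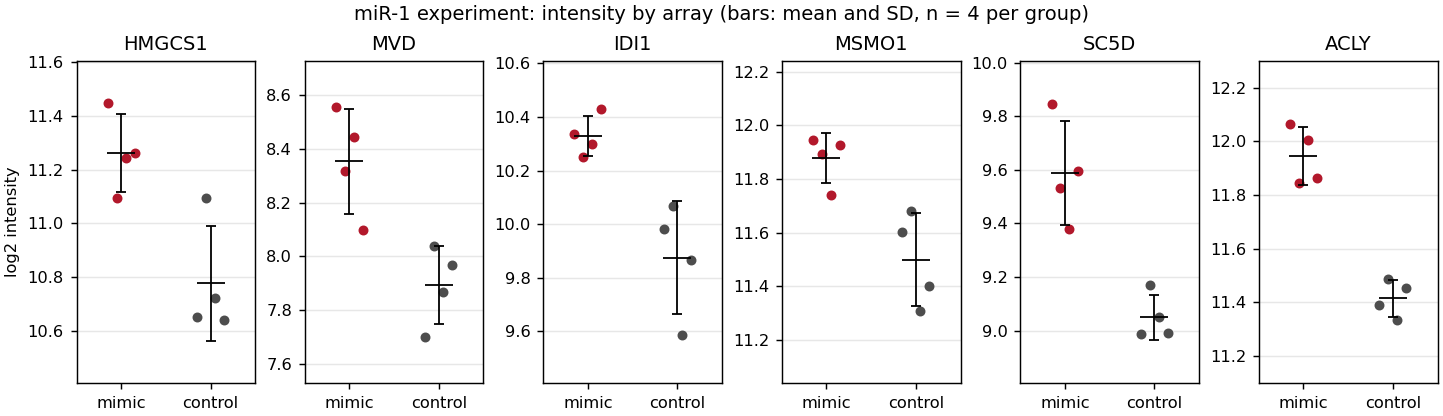
Log2 intensity in each array of the miR-1 experiment, mimic left and control right, for the 5 genes that rose and for MSMO1 by its brightest probe; points are arrays, and bars are the mean and SD of 4 arrays. The groups separate in every panel except that of HMGCS1, where the lowest mimic array and the highest control array are level at 11.09.

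The other genes of this stretch did not pass the test with miR-1. SQLE, the squalene epoxidase, had 11.53, 11.56, 11.48 and 11.57 in mimic arrays and 11.23, 11.44, 11.30 and 11.12 in control arrays, without overlap, and differed by 0.26 (adjusted p 0.144 by limma). TM7SF2, a sterol reductase, had 7.40, 7.39, 7.18 and 7.11 in mimic arrays and 7.06, 6.82, 6.93 and 7.04 in control arrays, without overlap, and differed by 0.31 (adjusted p 0.112). LSS, which closes the sterol rings, differed by 0.28, EBP by 0.20, DHCR7 by 0.17, HSD17B7 by 0.15, NSDHL by 0.15 and CYP51A1 by 0.11. Over the whole list 10 genes had miR-1 mimic arrays that were all above all control arrays, or 31.2%, where 5.02% of all tested genes did so, and no gene of the list had them all below, where 5.73% did. The 10 include HMGCS1, whose lowest mimic array and highest control array were both at 11.09.

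With miR-4728-3p, TM7SF2 was the gene of the list that rose. Its lowest, median and highest log2 intensities were 7.62, 7.75 and 8.03 in mimic arrays and 7.003, 7.45 and 7.69 in control arrays. The groups overlapped, with 1 control array above the lowest mimic arrays, and the difference was 0.40 (SE 0.12, 1.31-fold, adjusted p 0.0406 by limma). The call was lost without any of mimic arrays 1, 3, 4 and 6 or control arrays 3, 4, 5 and 6, with a difference between 0.32 and 0.45 over all arrays left out. It was also lost with an offset of 16, with median scaling, with no filter on dim probes and with the replicate number as a block.

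CYP51A1, the lanosterol demethylase, had 9.54, 9.92 and 10.28 in miR-4728-3p mimic arrays and 10.10, 10.19 and 10.47 in control arrays. The groups overlapped, with the mimic arrays spread more widely, and the difference was -0.34 (SE 0.12, adjusted p 0.105 by limma). It passed the test when mimic array 2 was left out. EBP, the sterol isomerase, had 10.72, 10.92 and 11.08 in mimic arrays and 10.98, 11.16 and 11.36 in control arrays, and differed by -0.26 (adjusted p 0.147).

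DHCR7, the reductase that makes cholesterol in the last step, had 10.22, 10.61 and 10.66 in mimic arrays and 10.59, 10.82 and 10.89 in control arrays by its brightest probe, a difference of -0.25 (adjusted p 0.18 by limma). Its other probe had 10.18, 10.36 and 10.57 in mimic arrays and 10.56, 10.67 and 10.89 in control arrays, and fell by 0.34 (SE 0.10, adjusted p 0.0448). The groups overlapped only at their edges on that probe. DHCR7 and INSIG1 were the 2 of 10 listed genes with several tested probes that were called by another probe alone, where 2.25% of all such genes were. SC5D, which rose with miR-1, had 9.60, 9.64 and 9.76 in miR-4728-3p mimic arrays and 9.66, 9.81 and 10.08 in control arrays, and differed by -0.17 (adjusted p 0.418).

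Among the regulators, the transcripts of neither SREBP differed past the test. SREBF1 measured 8.50, 8.66, 8.52 and 8.58 in miR-1 mimic arrays and 8.49, 8.50, 8.49 and 8.46 in control arrays, a difference of 0.08 (adjusted p 0.75 by limma). SREBF2 measured 6.17, 6.39, 6.55 and 6.42 in mimic arrays and 6.70, 6.49, 6.38 and 6.55 in control arrays, a difference of -0.14 (adjusted p 0.604), near the filter of 6.17. The intervals of the differences were -0.08 to 0.23 for SREBF1 and -0.35 to 0.06 for SREBF2. Signal near the filter limits what the interval of SREBF2 can show.

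SCAP, the escort of the SREBP precursors, measured 9.81, 9.58, 9.56 and 9.76 in miR-1 mimic arrays and 9.72, 9.74, 9.99 and 9.83 in control arrays, a difference of -0.14 (adjusted p 0.58 by limma). INSIG1, which is itself a target of the SREBPs, measured 10.86, 10.60, 10.62 and 10.89 in mimic arrays and 10.31, 10.75, 10.58 and 10.06 in control arrays. The groups overlapped through control 2, and the difference was 0.32 (adjusted p 0.316), while its dimmer probe differed by 0.24 without overlap (adjusted p 0.283). INSIG2 measured 7.95, 7.92, 7.98 and 7.70 in mimic arrays and 7.68, 7.69, 7.83 and 7.88 in control arrays, a difference of 0.12 (adjusted p 0.658). STARD4, a carrier of cholesterol between membranes, differed by 0.09.

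In the miR-4728-3p experiment SREBF1 had 8.85, 9.01 and 9.23 in mimic arrays and 8.86, 8.99 and 9.20 in control arrays, a difference of 0.01 (adjusted p 0.988 by limma). SREBF2 had 6.47, 6.66 and 7.28 in mimic arrays and 6.46, 6.67 and 7.23 in control arrays, a difference of -0.02 (adjusted p 0.983). For both, the groups covered nearly the same range, and the intervals were -0.19 to 0.21 and -0.32 to 0.29.

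SCAP had 10.23, 10.46 and 10.69 in miR-4728-3p mimic arrays and 10.44, 10.70 and 10.80 in control arrays, a difference of -0.21 (adjusted p 0.314 by limma). INSIG1 had 11.20, 11.56 and 11.67 in mimic arrays and 11.54, 11.74 and 12.04 in control arrays by its brightest probe, a difference of -0.25 (adjusted p 0.232). Its other probe had 7.87, 7.92 and 8.25 in mimic arrays and 8.21, 8.33 and 8.59 in control arrays, and fell by 0.38 (SE 0.10, adjusted p 0.0266). Only the highest mimic array reached into the control range on that probe. INSIG2 had 7.78, 7.88 and 8.36 in mimic arrays and 7.81, 8.07 and 8.44 in control arrays, a difference of -0.18 (adjusted p 0.562). STARD4 went the other way, at 6.49, 6.79 and 7.29 in mimic arrays and 6.04, 6.33 and 6.98 in control arrays, a difference of 0.39 that did not pass the test (adjusted p 0.139). It passed when control array 4 was left out (adjusted p 0.0339).

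**Figure D4:**
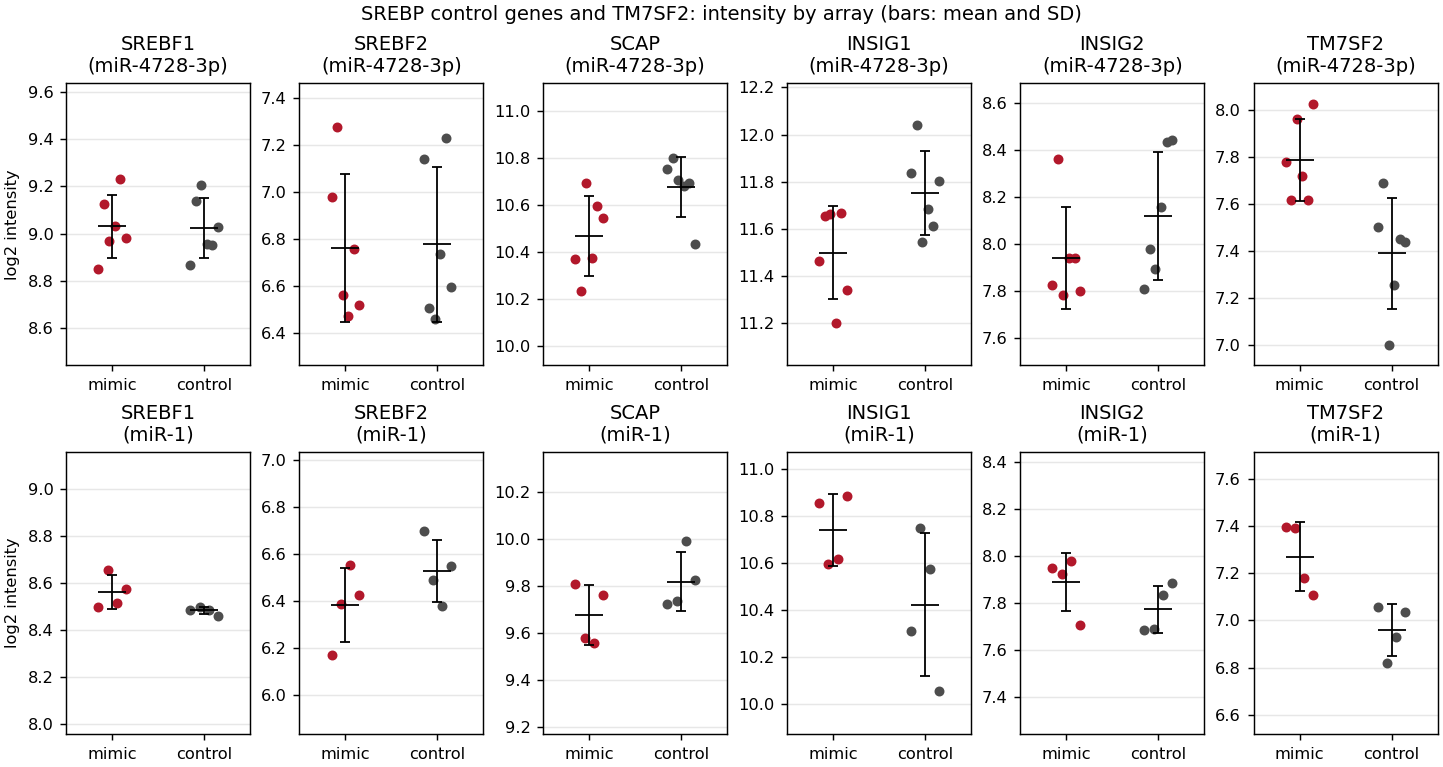
Log2 intensity in each array, mimic left and control right, for 5 SREBP control genes and TM7SF2 in the miR-4728-3p experiment (above, 6 arrays a group) and the miR-1 experiment (below, 4 a group); bars are the mean and SD. SREBF1 and SREBF2 overlap in both experiments, and TM7SF2 is higher with both mimics, past the test only with miR-4728-3p.

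In fatty acid synthesis ACLY stood apart with miR-1. ACLY, the ATP citrate lyase that releases acetyl-CoA from citrate in the cytosol, measured 12.07, 11.84, 12.01 and 11.86 in miR-1 mimic arrays and 11.39, 11.49, 11.33 and 11.45 in control arrays. The groups lay well apart, and the log2 difference was 0.53 (SE 0.08, 1.44-fold, adjusted p 0.00277 by limma). Its other probe measured 11.34, 10.97, 10.93 and 10.96 in mimic arrays and 10.33, 10.65, 10.48 and 10.41 in control arrays, and rose by 0.58 (SE 0.10, adjusted p 0.00806). ACLY passed the test whichever of the 8 arrays was left out.

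None of the other 8 fatty acid genes passed the test with miR-1. LPIN1, a phosphatidate phosphatase of lipid synthesis, had 11.12, 10.92, 10.94 and 11.10 in mimic arrays and 10.64, 10.85, 10.79 and 10.69 in control arrays, without overlap, and differed by 0.28 (adjusted p 0.113 by limma). SCD, the stearoyl-CoA desaturase, differed by 0.19 (adjusted p 0.333). FASN, the fatty acid synthase, had 12.46, 12.24, 12.50 and 12.17 in mimic arrays and 12.22, 12.32, 12.14 and 12.18 in control arrays, and differed by 0.13 (adjusted p 0.634). ACACA, which makes malonyl-CoA, differed by 0.08, ACSS2, which activates acetate, by 0.02, and the desaturases FADS1 and FADS2 by -0.07 and -0.08. The elongase ELOVL6 was split between its probes: the brighter differed by 0.00 (adjusted p 0.997 by limma), and the dimmer had 9.52, 9.68, 9.76 and 9.61 in mimic arrays and 9.49, 9.41, 9.50 and 9.18 in control arrays, without overlap, and differed by 0.25 (adjusted p 0.236).

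With miR-4728-3p, 8 of the 9 fatty acid genes were below 0, with a median of -0.16, and none passed the test. ACLY had 12.17, 12.27 and 12.37 in mimic arrays and 12.32, 12.42 and 12.56 in control arrays, a difference of -0.16 (adjusted p 0.421 by limma). ELOVL6 was the 1 gene of the list whose miR-4728-3p mimic arrays were all below all control arrays, where 2.64% of all tested genes did so and 2.94% lay all above. It had 11.77, 11.80 and 11.87 in mimic arrays and 11.93, 11.94 and 12.07 in control arrays, a difference of -0.16 (adjusted p 0.401), while its dimmer probe differed by 0.22 (adjusted p 0.609). FADS1 differed by -0.28, FASN by -0.20, ACACA by -0.17, LPIN1 and ACSS2 by -0.16, FADS2 by -0.11 and SCD by 0.08.

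The same genes were thus measured with both mimics, on separate tables with their own controls, and the difference between the mimics was not tested. By the methods the experiments used different versions of the array, so array version and mimic cannot be told apart. The same probe stood for the gene in both experiments for 31 of the 32. Of the 32 genes, 21 were below 0 with miR-4728-3p and above 0 with miR-1, 7 were above 0 in both, 4 were below 0 in both and none went the reverse way. The shares of all tested genes with these pairs of signs were not counted. No gene was called in both experiments. Before adjustment, limma's p was under 0.05 for 13 genes on the higher side and none on the lower side with miR-1, where 7.19% and 8.35% of all tested genes were, and for 2 genes on the higher side and 4 on the lower side with miR-4728-3p, where 8.1% and 11.2% were. The 4 lower ones were CYP51A1, DHCR7, EBP and INSIG1.

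Other genes of the same pathways were listed by function, and those that could be tested did not pass by the probe that stands for each gene. The 20 other sterol genes listed include genes that transport, esterify or sense cholesterol or cleave the SREBPs. They also hold GGPS1, tested only with miR-1, and ERG28, tested only with miR-4728-3p. A probe was present for 13 of the 20 with miR-4728-3p and for 14 with miR-1. In each experiment 11 were tested, and none was called in either direction by limma. At an unadjusted p under 0.05 by limma there was 1 in each direction in each experiment. The median difference of the 11 was -0.02 with miR-1 and 0.01 with miR-4728-3p. MBTPS1 and MBTPS2, the proteases that cleave the SREBP precursors, differed by -0.05 and 0.00 with miR-1 and by 0.03 and 0.01 with miR-4728-3p. Of 15 other fatty acid genes listed, 13 had a probe in each experiment, 12 were tested with miR-1 and 13 with miR-4728-3p. None was called by its standing probe. At an unadjusted p under 0.05 by limma there were none with miR-1 and 3 on the lower side with miR-4728-3p. The medians of the tested genes were 0.01 with miR-1 and -0.07 with miR-4728-3p. The other probe of MID1IP1, which encodes a partner of acetyl-CoA carboxylase, rose with miR-1 by 0.49 (SE 0.09, adjusted p 0.011 by limma) without overlap of the groups, while its brighter probe differed by 0.25 (adjusted p 0.423).

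Among the breast epithelial markers, KRT14 and CDH1 rose with miR-1, by 0.72 and 0.49 (adjusted p 0.000218 and 0.00491 by limma), and the mean of the 6 markers lay between 10.38 and 10.44 over mimic arrays and between 10.14 and 10.22 over control arrays. Their part in the rise of the sterol genes was not tested. None of the 6 passed the test with miR-4728-3p, where their mean lay between 11.17 and 11.35 over mimic arrays and between 11.24 and 11.41 over control arrays.

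The promoters of the 5 genes that rose with miR-1 are shown because these genes moved together and because SREBPs act at promoters beside the factor NF-Y. Each window runs from 250 bases before to 50 bases after a RefSeq transcript start on GRCh38.p14, 5′ to 3′ along the gene, and where a gene had several windows the one with most matches is shown. Capitals mark CCAAT, the box that NF-Y binds, and CACNCCAC, the core letters of the sterol regulatory element, each on either strand.
ACLY, chr17:41918902-41919201, minus strand: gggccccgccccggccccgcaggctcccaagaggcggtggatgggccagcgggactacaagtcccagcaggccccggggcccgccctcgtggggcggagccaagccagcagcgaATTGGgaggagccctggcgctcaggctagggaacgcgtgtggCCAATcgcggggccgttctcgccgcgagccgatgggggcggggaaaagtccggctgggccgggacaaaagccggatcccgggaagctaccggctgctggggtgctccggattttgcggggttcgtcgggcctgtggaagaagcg
HMGCS1, chr5:43313363-43313662, minus strand: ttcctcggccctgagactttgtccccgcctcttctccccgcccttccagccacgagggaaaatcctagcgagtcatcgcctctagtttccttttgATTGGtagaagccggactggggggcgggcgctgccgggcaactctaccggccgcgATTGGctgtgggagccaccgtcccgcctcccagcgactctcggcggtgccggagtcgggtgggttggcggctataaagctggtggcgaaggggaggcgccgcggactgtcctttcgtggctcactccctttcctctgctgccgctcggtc
IDI1, chr10:1048837-1049136, minus strand: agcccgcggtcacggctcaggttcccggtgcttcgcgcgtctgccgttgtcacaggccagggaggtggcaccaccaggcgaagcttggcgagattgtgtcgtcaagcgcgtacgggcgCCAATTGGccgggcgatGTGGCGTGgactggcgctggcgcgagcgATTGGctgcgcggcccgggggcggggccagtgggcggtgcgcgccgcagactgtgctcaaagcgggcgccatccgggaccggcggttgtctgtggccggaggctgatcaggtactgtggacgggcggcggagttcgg
MVD, chr16:88663042-88663341, minus strand: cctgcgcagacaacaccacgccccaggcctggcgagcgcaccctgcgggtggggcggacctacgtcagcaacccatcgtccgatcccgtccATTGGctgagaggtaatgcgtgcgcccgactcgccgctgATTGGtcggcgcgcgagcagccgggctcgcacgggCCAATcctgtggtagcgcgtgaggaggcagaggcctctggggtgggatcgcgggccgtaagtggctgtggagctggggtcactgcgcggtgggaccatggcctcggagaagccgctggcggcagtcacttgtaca
SC5D, chr11:121292521-121292820, plus strand: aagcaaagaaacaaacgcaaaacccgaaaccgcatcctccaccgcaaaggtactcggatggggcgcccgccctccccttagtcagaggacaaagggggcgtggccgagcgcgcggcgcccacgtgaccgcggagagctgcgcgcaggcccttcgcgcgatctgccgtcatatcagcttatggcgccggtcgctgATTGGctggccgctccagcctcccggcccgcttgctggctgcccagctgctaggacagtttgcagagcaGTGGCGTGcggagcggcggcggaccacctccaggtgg

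All 5 windows shown hold CCAAT on one strand or the other, with 3 matches in MVD, 3 in IDI1, 2 in ACLY, 2 in HMGCS1 and 1 in SC5D. A pair of the matches in IDI1 lies on opposite strands and overlaps. Because the windows were picked for their matches, this count favours them. Over all 10 windows of these genes 8 hold CCAAT, or 80%. Of the 32 windows of listed genes that did not rise, 53.1% do. IDI1 and SC5D also hold CACNCCAC, once each. Among the 29 listed genes with a window in the RefSeq table, 21 had CCAAT in at least 1 window, or 72.4%, against 39.7% of 27305 genes in the table, and counted by window 59.5% of the listed genes' windows did, against 34.6% of all 35116 windows. CACNCCAC was in 6 of the 29, or 20.7%, against 7.05% of all genes. TCACNCCAC, the longer form that contains it, was in 1 of 29, SREBF2, against 1.39% of all genes. The E-box CACGTG was in 4 of 29, or 13.8%, against 8.77%. Of the 24 listed genes with a window that did not rise with miR-1, 16 had CCAAT, or 66.7%. ACAT2, FASN, FDFT1 and SQLE had no window in the table. These matches describe the letters of the windows, and the arrays do not measure what is bound there.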

How the data were processed

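RNA of transfected MCF10A cells was hybridised by the authors to Illumina HumanHT-12 arrays, 48803 probes in the miR-4728-3p table and 47323 in the miR-1 table. The authors deposited raw probe intensities, not normalized and without detection p-values or control probes, and a table of normalized intensities made on a BASE server by a method not given in the sources used here. The second table served as an alternative.

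Here the deposited intensities were corrected with normexp (offset 50) and quantile normalized within each experiment on the log2 scale, in place of the planned neqc, which needs control probes. The log2 values, computed here from the deposited intensities, were tested with limma 3.58.1 in R 4.3.3 (lmFit and eBayes, mimic against control, two-sided), over the probes whose average exceeded the overall median signal (6.36 log2 with miR-4728-3p, 6.17 with miR-1), with Benjamini-Hochberg adjustment over all tested probes and a threshold of 0.05. The brightest tested probe stood for its gene. Probes had 1 gene name in 27578 and 30113 cases, several in 13 and 8, and none in 21212 and 17202. The platform's gene names were brought up to date by gene ID. Listed genes had 49 probes in each table, 44 and 46 of them tested, and the dim probes of ACACA, ACSS2, SREBF1 and, with miR-4728-3p, SC5D were left out. The number of arrays limits the precision.

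The genes called in either experiment and the SREBP regulators were described with all values, and the others by counts and ranges or where their probes disagreed or their groups stood apart. From the other lists, called genes were named. MBTPS1, MBTPS2, MID1IP1, GGPS1 and ERG28 were added after their values were seen. The genes and lists were chosen with earlier results of these data known. The test was run on simulated data as a check. Alternatives covered background, normalization, filter, probe choice, replicate block, array weights and leaving out each array; the slide was not given in the sources used here.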

Additional observations from a re-analysis of the deposited data

Results flagged for a closer look

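In 5 of 128 sets of arrays 1 array stood apart from the others of its group by Dixon's test, or 3.91%, where chance gives about 5%. All 5 were in the miR-4728-3p experiment. Mimic array 2 was high for INSIG2, at 8.36 log2 units, and for MSMO1, at 13.09. Control array 1 was low for ACAT2, at 11.26, and high for ELOVL6, at 12.07. Control array 6 was low for SCAP, at 10.44.

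For 6 of 32 genes every mimic array lay on one side of its control mean in the miR-1 experiment and every mimic array on the other side in the miR-4728-3p experiment, higher with miR-1 in all 6. The share of all tested genes that did so was not counted, so the 6 cannot be read as a trait of the list. The miR-1 difference minus the miR-4728-3p difference was 0.70 for SC5D, 0.69 for ACLY, 0.57 for INSIG1, 0.46 for EBP, 0.39 for SQLE and 0.25 for ACACA on the log2 scale. These differences were not tested, since the tables were normalized apart, the array versions differ by the methods, and each mimic has its own controls.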

How the results depend on the processing

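With the miR-1 mimic the count of higher genes was 2 with a normexp offset of 16 (ACLY and SC5D), and 1 with median scaling (ACLY), against 5 in the main setting; it was 2 to 6 with single arrays left out, with no gene lower. It was 6, with MSMO1 added, with the authors' normalized intensities, with no background correction, with no filter, with the filter at the 75th percentile and with trend and robust options, and 4, without HMGCS1, with array weights. ACLY passed the test in all 10 other settings. The median difference was 0.21 with median scaling and 0.14 to 0.19 with single arrays left out. Over all tested genes the miR-1 median was 0.028 with median scaling, against -0.005 in the main setting. With the miR-4728-3p mimic the count of higher genes was 0 with an offset of 16, with median scaling and with no filter on dim probes, and 0 to 1 with single arrays left out, the gene being STARD4 without control array 4; the count of lower genes was 0 to 1, CYP51A1 passing without mimic array 2. The median was -0.089 with median scaling, -0.12 with the mean of a gene's tested probes, and -0.16 to -0.12 with single arrays left out. With median scaling 12 of 32 genes were above 0, against 7. Over all tested genes the median was 0.025 with median scaling, against -0.024 in the main setting, and 56.7% were above 0, against 43.9%. MVD was 0.036 and SREBF2 0.030 with median scaling, and SREBF1 -0.017 with array weights; with single arrays left out SREBF1 ran between -0.032 and 0.044, SREBF2 between -0.118 and 0.076, MVD between -0.113 and 0.018 and IDI1 between -0.016 and 0.114. Before adjustment, 4 listed genes were on the lower side with miR-4728-3p at a limma p under 0.05 in the main setting. This count was 11 with the authors' normalized intensities and with no background correction, 9 with trend and robust options, and 0 with median scaling. The share of all tested genes at that level was not counted in those settings. The cause of these changes was not tested.

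Over all genes, median scaling gave 433 higher and 145 lower with miR-4728-3p, or 74.9% higher, against 466 and 449, or 50.9%; and 76 and 20 with miR-1, or 79.2%, against 173 and 147, or 54.1%. An offset of 16 gave 99 and 83 with miR-1. With the replicate number as a block, 67 rose and 37 fell with miR-1, or 64.4% higher, with 1 listed gene higher (ACLY), and 0 listed genes were higher with miR-4728-3p. Same-numbered arrays correlated in their deviations at -0.39 to 0.04 with miR-1 and at -0.12 to 0.06 with miR-4728-3p. Mimic and control arrays of other numbers correlated at -0.36 to 0.42 with miR-1 and at -0.22 to 0.24 with miR-4728-3p. None of the 4 or 6 mimic arrays correlated best with its own number. These correlations cannot show whether arrays shared a culture or a batch, which the labels do not give. A slide block was not run. Signal near the filter limits SREBF2 and STARD4.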
